A study of Mus musculus with 24 samples.

Results

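The 42 genes described here encode nuclear subunits of respiratory complex III (9 genes), cytochrome c (1), complex IV (15) and ATP synthase (17). They are every gene of the deposited table, out of 16921, whose symbol begins with Uqcr, with Atp5 or with Cox followed by a digit from 4 to 8, together with Cyc1 and Cycs. All 42 are annotated as protein coding in GENCODE M21. Of these, 41 had enough counts to be tested. The exception was Cox4i2, an isoform of a complex IV subunit best known from lung, which reached at most 0.618 CPM (the count scaled to the library's total, adjusted by its TMM factor) in any library.

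Complex III passes electrons from ubiquinol to cytochrome c, and complex IV passes them from cytochrome c to oxygen. Both pump protons across the inner mitochondrial membrane, and ATP synthase lets the protons flow back through a ring of c subunits to make ATP. Proximal tubule cells, the main cell type of kidney cortex, are packed with mitochondria and rely on this pathway to power solute reabsorption.

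RNA came from kidney cortex of male mice of the C57BL6/J background at 22 months of age, either wild type (WT) or lacking the hormone FGF21 (FGF21 KO, here KO). From 3 months of age the mice had free access to a normal protein diet (NP, 20% casein) or a low protein diet (LP, 5% casein). The 4 groups WT_NP, WT_LP, KO_NP and KO_LP held 6 libraries each, numbered here only to name them. How the KO allele was made is not given in the sources used here, and Fgf21 itself was not analysed here, so the genotype labels were not checked on it.

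Each library counted 3' tags of messenger RNA, and totals ran from 8469102 to 21063652 counts. Markers of the first segments of the proximal tubule (S1 and S2, 13 genes) summed to between 4689 and 10380 CPM. Libraries WT_NP 1, KO_LP 4 and KO_LP 6 stood apart in marker sums, and were picked after seeing the data by no fixed rule. Adipocyte markers (4 genes with a row) summed to 438 CPM in KO_LP 6, against 96.6 to 174 CPM in the rest of its group. Macrophage markers (13 genes) reached 1844 CPM in WT_NP 1 and 2406 CPM in KO_LP 4, against group medians of 659 and 1080.1 CPM. Proximal tubule markers were at 4689 CPM in KO_LP 6 and 4970 CPM in KO_LP 4, the other 4 KO_LP libraries lying between 7199.6 and 7727 CPM. Counts of members called are therefore given with and without these 3 libraries. Other libraries were high in immune marker lists and were not in that set. KO_LP 5 held 14632 CPM of B and plasma cell markers, against 1352 to 3889 CPM in the rest of its group, and WT_LP 3 and WT_LP 4 held 1359 and 1627 CPM of macrophage markers, against a group median of 835 CPM. In bulk tissue, fewer cells of a type and less RNA per cell cannot be told apart.

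Promoter sequences from RefSeq (build GRCm38.p6, 250 bases before to 50 after the start) were found for 32 of the 42 genes. Those of 5 genes that fell on LP in KO mice are shown, 5′ to 3′ on the gene's strand, with any motif found in capitals. The first 3 are the members whose KO_LP libraries all lay below all KO_NP libraries, and Atp5j2 and Atp5k are called members that hold a searched motif. In Cycs, at chr6:50566520-50566819 (minus strand), the capitals mark the core motif of NRF1 (GCATGCGC), a factor known for driving nuclear respiratory genes. In Atp5k, at chr5:108434350-108434649 (minus strand), they mark the same motif on both strands, overlapping. In Atp5j2, at chr5:145191492-145191791 (minus strand), they mark the core motif of YY1 (AAGATGGCG). None of the searched motifs was found in Atp5g1, at chr11:96075582-96075881 (minus strand), or in Cox5b, at chr1:36691237-36691536 (plus strand).
Atp5g1: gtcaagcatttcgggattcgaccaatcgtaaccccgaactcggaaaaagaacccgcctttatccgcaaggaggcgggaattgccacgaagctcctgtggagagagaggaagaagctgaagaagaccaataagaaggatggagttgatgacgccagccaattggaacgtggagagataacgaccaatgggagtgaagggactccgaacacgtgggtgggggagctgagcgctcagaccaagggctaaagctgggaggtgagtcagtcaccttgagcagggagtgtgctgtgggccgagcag
Cox5b: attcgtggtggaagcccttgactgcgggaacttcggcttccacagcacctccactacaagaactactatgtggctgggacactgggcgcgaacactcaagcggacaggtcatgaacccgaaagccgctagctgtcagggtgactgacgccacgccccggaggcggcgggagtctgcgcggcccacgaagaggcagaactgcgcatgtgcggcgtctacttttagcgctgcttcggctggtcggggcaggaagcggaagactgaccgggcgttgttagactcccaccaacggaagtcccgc
Cycs: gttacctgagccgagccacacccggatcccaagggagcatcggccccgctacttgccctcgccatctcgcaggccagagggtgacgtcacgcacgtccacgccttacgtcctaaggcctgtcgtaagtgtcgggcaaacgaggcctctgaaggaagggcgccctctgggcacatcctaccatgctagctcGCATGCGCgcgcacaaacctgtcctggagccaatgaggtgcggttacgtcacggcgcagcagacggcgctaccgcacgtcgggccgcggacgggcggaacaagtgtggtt
Atp5j2: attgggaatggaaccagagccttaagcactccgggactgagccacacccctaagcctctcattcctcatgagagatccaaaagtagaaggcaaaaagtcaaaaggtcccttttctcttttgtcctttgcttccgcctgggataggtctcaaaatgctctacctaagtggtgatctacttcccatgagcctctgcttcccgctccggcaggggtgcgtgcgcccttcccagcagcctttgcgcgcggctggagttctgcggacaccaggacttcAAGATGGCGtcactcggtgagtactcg
Atp5k: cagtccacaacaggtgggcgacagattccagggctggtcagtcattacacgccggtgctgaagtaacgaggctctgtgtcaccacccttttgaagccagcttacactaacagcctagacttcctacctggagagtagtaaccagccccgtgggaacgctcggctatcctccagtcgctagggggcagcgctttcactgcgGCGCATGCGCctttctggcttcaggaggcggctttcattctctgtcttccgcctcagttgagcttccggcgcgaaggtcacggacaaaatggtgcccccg

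On either strand, the NRF1 core was present in 7 of 32 member promoters (21.9%) and in 3.05% of the promoters of all 27025 genes in that table. Besides Cycs and Atp5k these were Uqcrc1, Uqcr11, Cox6a1, Atp5g2 and Atp5l. The ETS core (CCGGAAGT), bound by GABPA, was present in 4 of 32 (12.5%, Uqcrh, Uqcr11, Cox8a and Atp5h) and in 4.31% of all genes. The YY1 core was in 2 of 32 (6.25%, Atp5j2 and Atp5j) and in 1.64% of all genes. A single site of the ERR receptors (TCAAGGTCA) was in Atp5g3 alone (3.13%, against 0.466%), and a TATA box (TATAAA) was in 2 of 32 (6.25%, Atp5l and Atp5md) against 15.7%. These shares describe letters in a 300 base window and no test was made of them.

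As complexes, the genes stood highest in KO_NP and lowest in KO_LP, while the WT groups lay between and close together. The level of a complex was taken as the mean over its genes of log2 CPM, a description to which no test was applied. For complex III it was 8.43 ± 0.179 (SD, n = 6) in WT_NP, 8.42 ± 0.140 in WT_LP, 8.58 ± 0.129 in KO_NP and 8.26 ± 0.222 in KO_LP. Complex IV stood at 7.82 ± 0.146, 7.82 ± 0.130, 8.09 ± 0.166 and 7.73 ± 0.194 in the same order. For ATP synthase the levels were 8.04 ± 0.134, 8.07 ± 0.145, 8.20 ± 0.115 and 7.89 ± 0.189. In KO mice the LP level was thus lower by 0.31 to 0.35 on the log2 scale, against pooled SDs of 0.156 to 0.181. Each gene counts equally, so the complex IV level gives full weight to Cox6a2 (log2 fold -2.03) and Cox6b2 (0.66). Median log2 folds for LP in KO were -0.30 for complex III, -0.34 for complex IV and -0.32 for ATP synthase. For KO against WT on NP, Cox6a2 was at 2.01 and the complex IV median was 0.17. In WT the LP minus NP difference was -0.01 for complex III, 0.00 for complex IV and 0.02 for ATP synthase. The groups overlapped in all 3 complexes, through KO_LP 1 and, for complex III, also KO_LP 2. Without WT_NP 1, KO_LP 4 and KO_LP 6 the KO differences were -0.25, -0.31 and -0.24 for complexes III and IV and ATP synthase.

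**Figure D1:**
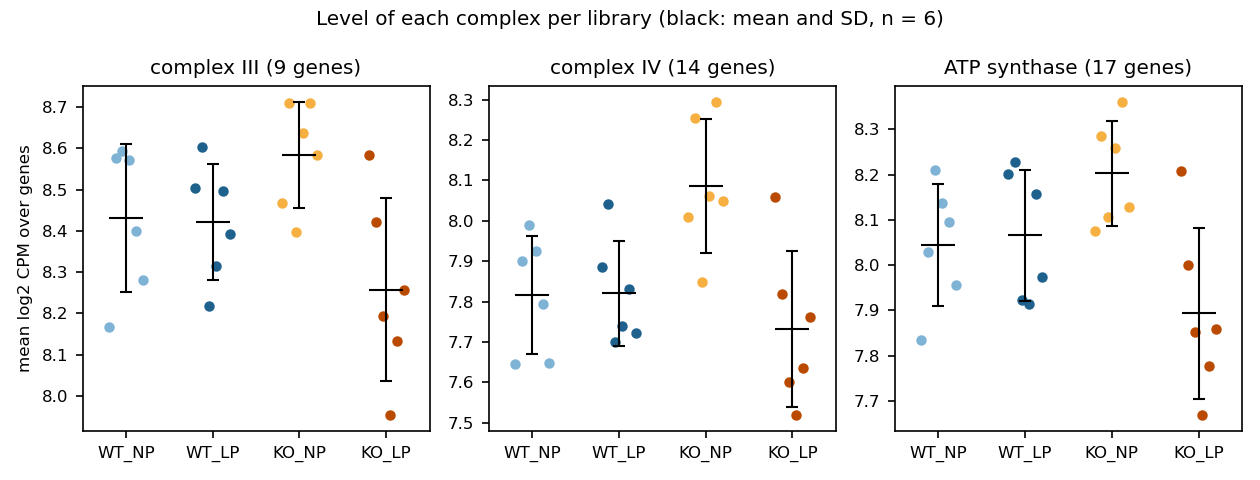
Mean log2 CPM over the genes of complex III, complex IV and ATP synthase (y axis) in each library (points) of the 4 groups, with the group mean and SD in black (n = 6). KO_LP means sit lowest and KO_NP means highest in each panel, the WT means differ by at most 0.02 on the log2 scale, and KO_LP 1 is the highest point of its group.

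Comparing LP with NP in WT mice asks what protein restriction does to these genes when FGF21 is present. None of the 41 tested members was called (edgeR quasi-likelihood, adjusted p under 0.05), where 0.0% of all 15165 genes tested were called. At an unadjusted p under 0.05 there were 0 members and 581 of all genes, and DESeq2, limma voom and limma on the normalized values called 0 members too. Members were spread evenly about no change, with 20 below 0 and 21 above and a median log2 fold of 0.00. The smallest p belonged to Cox7a2l and to Cox6b2, a complex IV isoform known from testis. Cox7a2l is known for a factor that joins complexes III and IV into supercomplexes, whose activity in these mice was not measured. Cox7a2l ran from 58.4 to 76.5 CPM (median 67.5) in WT_NP and from 68.7 to 81.2 CPM (median 74.8) in WT_LP (log2 fold 0.15 with SE 0.0780 and adjusted p = 1.0, all 6 LP libraries above the NP mean). Cox6b2 ran from 8.39 to 10.2 CPM (median 8.81) and from 8.97 to 14.1 CPM (median 11.5) (log2 fold 0.34 with SE 0.193 and adjusted p = 1.0, 5 of 6 above). In both genes the WT groups overlapped.

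The same diet in KO mice asks what happens without FGF21. Here 11 of 41 members fell and 1 rose, where 3.58% of all genes tested were called lower and 3.59% higher. Those that fell were Uqcrq of complex III, Cycs, the complex IV genes Cox6a2, Cox5b, Cox5a and Cox6b1, and the ATP synthase genes Atp5g1, Atp5j2, Atp5e, Atp5c1 and Atp5k. The member that rose was Cox6b2. In all, 36 members had an unadjusted p under 0.05 (4237 of all genes), and 39 of 41 had a log2 fold below 0, with a median of -0.32 against 0.03 over all genes. Apart from Cox6a2, the falls that were called were of 22.3% to 27.9%, so the pattern was one of many small shifts. Without WT_NP 1, KO_LP 4 and KO_LP 6 no member was called in either direction. In that fit 25 genes of 15327 were called lower and 11 higher, 28 members kept an unadjusted p under 0.05, and the median over members was -0.26.

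Single libraries also set the number of falls. It was 34 without KO_LP 1 and 19 without WT_NP 1. It was 3 without KO_NP 5 or without KO_LP 4, 5 without KO_NP 4 or without KO_LP 6, 6 without KO_LP 5 and 7 without KO_NP 6. Without WT_LP 3 it was 12 and without WT_LP 4 it was 11. DESeq2 called 28 and limma voom 27, each including the 11. The share of all genes called lower, 3.58%, is that of the main fit. The shares in these other fits are not given here, so their counts cannot be set against it. Cox6a2, Cox5b and Atp5g1 were called lower in each of the 24 fits that left out 1 library.

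**Figure D2:**
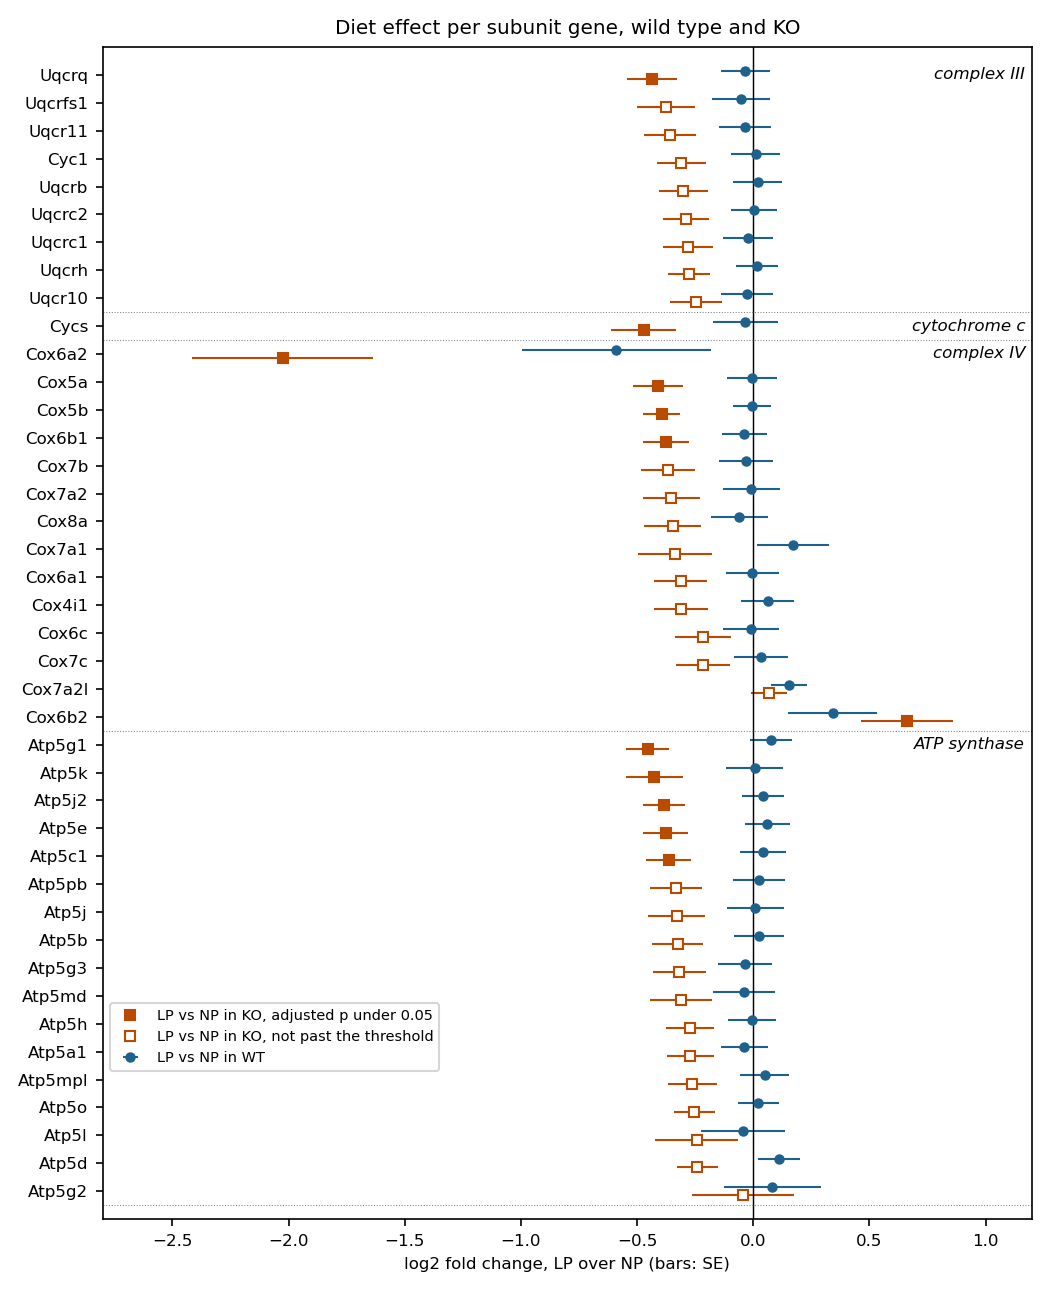
Log2 fold change of LP over NP (x axis, bars are the SE of the fit) for each of the 41 tested genes, grouped by complex. Circles are WT and squares KO, filled where the adjusted p was under 0.05. WT circles scatter about 0, while the KO squares lie to the left for 39 of 41 genes, with Cox6a2 farthest left at -2.03 and Cox6b2 to the right at 0.66.

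In complex III 1 of 9 genes fell in KO mice on LP, and the other 8 had log2 folds from -0.37 to -0.24. The gene that fell was Uqcrq, which encodes the small subunit that sits next to cytochrome b. Uqcrq ran from 432 to 574 CPM (median 513) in WT_NP and from 440.4 to 579.9 CPM (median 475) in WT_LP, then from 495 to 641 CPM (median 555) in KO_NP and from 329.6 to 526 CPM (median 410.0) in KO_LP. Only KO_LP 1 reached into the KO_NP range, and the other 5 KO_LP libraries lay below every KO_NP library (log2 fold -0.44 with SE 0.106 and adjusted p = 0.0236, lower in 6 of 6). Uqcr11, another small subunit, ran from 205 to 283 CPM (median 240.0) in KO_NP and from 154 to 235 CPM (median 174) in KO_LP, and missed the threshold (log2 fold -0.36 with SE 0.112 and adjusted p = 0.0515). Uqcrh, the acidic hinge protein that docks cytochrome c1 to cytochrome c, ran from 629.6 to 791 CPM (median 708) and from 496 to 708 CPM (median 567) (log2 fold -0.27 with SE 0.0909 and adjusted p = 0.0612). In the WT groups, Uqcr11 ran from 172 to 242 CPM (median 221) on NP and from 174 to 220.0 CPM (median 215) on LP. Uqcrh there ran from 553 to 709.6 CPM (median 676) and from 588 to 720.1 CPM (median 664).

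The redox subunits of complex III were not called. They are Uqcrfs1, the Rieske iron-sulfur protein (-0.37, adjusted p = 0.0632), and Cyc1, cytochrome c1 (-0.31, adjusted p = 0.0673). Neither were the core proteins Uqcrc1 (-0.28) and Uqcrc2 (-0.29), or the small subunits Uqcrb (-0.30) and Uqcr10 (-0.24). All 9 genes had log2 folds below 0 and an unadjusted p under 0.05.

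Cycs, the mobile carrier between complexes III and IV, fell by 27.9% in KO mice on LP. Cycs ran from 88.7 to 133 CPM (median 111) in WT_NP and from 83.3 to 146 CPM (median 98.9) in WT_LP, then from 117 to 154 CPM (median 132) in KO_NP and from 69.9 to 114 CPM (median 98.3) in KO_LP. Every KO_LP library lay below every KO_NP library, and the WT groups overlapped almost fully (log2 fold -0.47 with SE 0.140 and adjusted p = 0.0436 in KO; -0.03 in WT). Across all genes tested, 2.06% had non-overlapping KO groups with LP lower. The call ended in 8 of the 24 fits that left out 1 library, among them the one without KO_LP 6, the library with the lowest value.

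Among the 10 widely used subunits of complex IV, 3 fell on LP in KO and the rest pointed the same way without a call. Cox5b, the zinc-binding subunit on the matrix side, showed the cleanest separation. Cox5b ran from 375 to 452 CPM (median 416) in WT_NP and from 370.4 to 458 CPM (median 412) in WT_LP, then from 403 to 487 CPM (median 440.0) in KO_NP and from 284 to 396 CPM (median 335) in KO_LP. All KO_LP libraries lay below all KO_NP libraries, and the WT groups overlapped almost fully (log2 fold -0.39 with SE 0.0807 and adjusted p = 0.0133 in KO). Cox5a, its neighbour in the complex, ran from 584 to 729 CPM (median 641) in KO_NP and from 384 to 627 CPM (median 472) in KO_LP (log2 fold -0.41 with SE 0.108 and adjusted p = 0.0316). Its groups overlapped through KO_LP 1, and an exon of Cox5a overlaps Gm26631 on the opposite strand, whose reads may not be told apart from its own.

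Cox6b1, the subunit at the dimer interface on the intermembrane side, also fell, from a KO_NP level that was itself high. Cox6b1 ran from 463 to 620.0 CPM (median 563) in WT_NP and from 484 to 631 CPM (median 533) in WT_LP, then from 666 to 784 CPM (median 752) in KO_NP and from 505 to 693 CPM (median 532) in KO_LP. KO_NP stood above every WT_NP library, and KO_LP ran from within the WT range to above it (log2 fold -0.38 with SE 0.0974 and adjusted p = 0.0292 for LP in KO, lower in 6 of 6). Of the widely used subunits not called, Cox7b had a log2 fold of -0.37, Cox7a2 of -0.35, Cox8a of -0.35, and Cox6a1 and Cox4i1 of -0.31 each. Cox6c and Cox7c, small membrane subunits, were at -0.22 and -0.21, with unadjusted p above 0.05. Cox7a2l, known for a supercomplex factor, was the exception in sign (0.07, adjusted p = 0.604). It ran from 59.1 to 70.3 CPM (median 66.8) in KO_NP and from 58.7 to 77.7 CPM (median 70.6) in KO_LP.

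**Figure D3:**
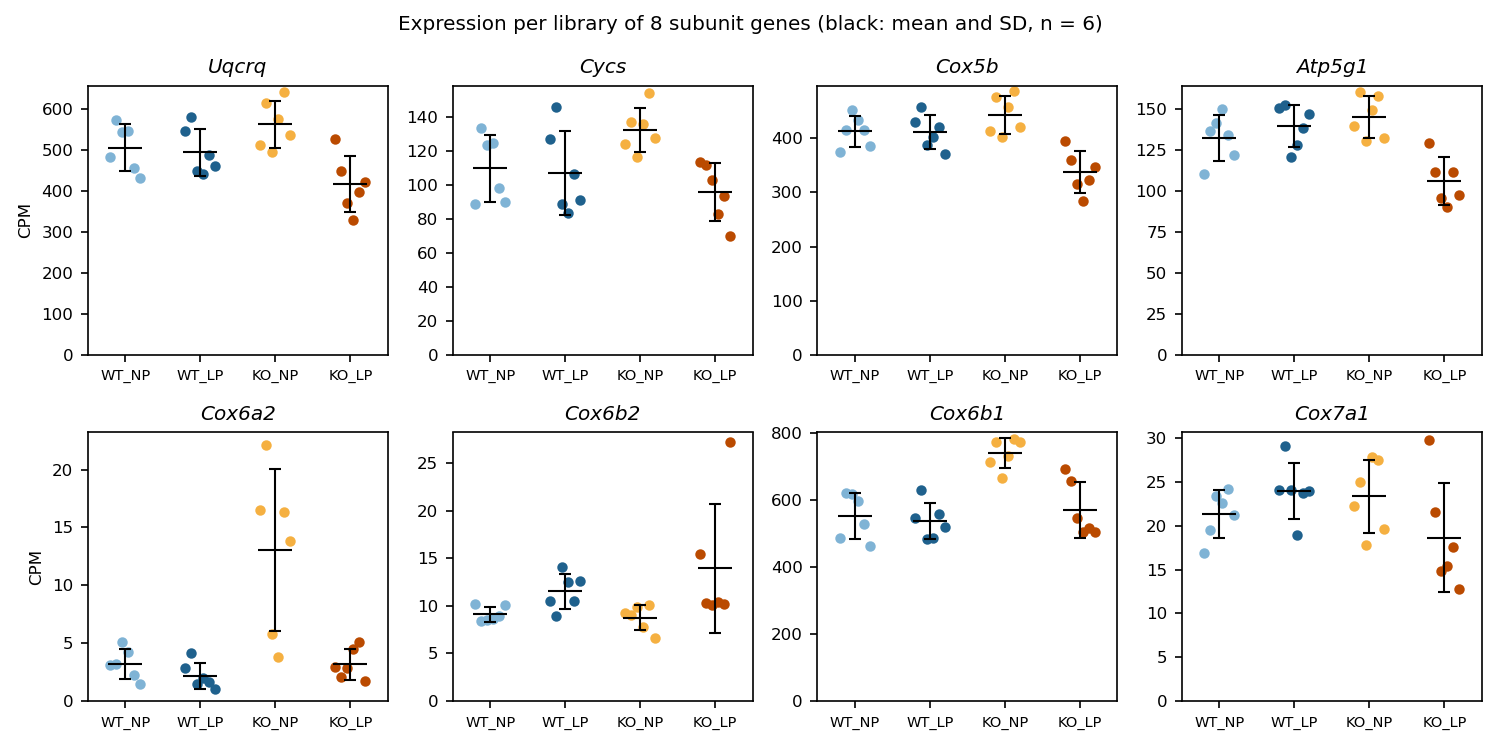
CPM (y axis, from 0) of 8 genes in each library (points) by group, with mean and SD in black (n = 6). For Cycs, Cox5b and Atp5g1 all KO_LP points lie below all KO_NP points. Cox6a2 is raised in 4 of 6 KO_NP libraries, and the KO_LP mean of Cox6b2 is drawn up by KO_LP 6 at 27.2 CPM.

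Complex IV also has isoforms of restricted tissue use, and of the 3 tested 1 fell and 1 rose. Cox6a2, the isoform of heart and skeletal muscle, ran from 1.47 to 5.10 CPM (median 3.12) in WT_NP and from 1.05 to 4.13 CPM (median 1.83) in WT_LP. In KO_NP it ran from 3.79 to 22.1 CPM (median 15.1) and in KO_LP from 1.70 to 5.11 CPM (median 2.88). The values of KO_NP 1 to 6 were 16.5, 22.1, 5.79, 3.79, 16.4 and 13.8 CPM, so 4 libraries stood well above all others of the series and KO_NP 3 and KO_NP 4 did not. KO mice thus had a lower level on LP (log2 fold -2.03 with SE 0.390 and adjusted p = 0.0104, lower in 6 of 6), although the groups overlapped through KO_LP 4 and KO_LP 5. Its partner Cox6a1 ran from 926 to 1269.7 CPM (median 1124) and from 673 to 1108 CPM (median 898) in the same groups and was not called (adjusted p = 0.0832). In the WT groups Cox6a1 ran from 813 to 1082 CPM (median 992) on NP and from 861 to 1113 CPM (median 963) on LP. Without WT_NP 1, KO_LP 4 and KO_LP 6 the log2 fold of Cox6a2 was -2.01 (adjusted p = 0.0556).

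Markers of skeletal and heart muscle were looked at beside Cox6a2. Of 17 such genes 12 had a row and 10 were tested, with 0 called in the KO diet comparison. Their summed level was highest in KO_LP 4 (76.4 CPM), KO_NP 3 (62.4 CPM) and KO_NP 6 (54.1 CPM), where Cox6a2 was at 4.48, 5.79 and 13.8 CPM. In KO_NP 1, 2, 4 and 5 the sums were 8.55, 18.1, 3.87 and 2.92 CPM, and the WT libraries ranged from 3.56 to 29.4 CPM. Cox6a2 was high in KO_NP 1, 2 and 5, with sums within or below the WT range, and in KO_NP 6, with a sum above it. The part of muscle tissue in the level of Cox6a2 was not tested. An exon of Cox6a2 also overlaps Itgad on the opposite strand, whose reads may not be told apart from its own.

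Cox6b2, the testis isoform of Cox6b1, was the only member that rose in KO mice on LP. It ran from 6.62 to 10.1 CPM (median 9.11) in KO_NP and from 10.1 to 27.2 CPM (median 10.4) in KO_LP (log2 fold 0.66 with SE 0.196 and adjusted p = 0.0436, higher in 6 of 6). The groups did not overlap, but they nearly touched, as the highest KO_NP and lowest KO_LP values both round to 10.1 CPM. Groups that did not overlap, with LP higher, made up 1.65% of all genes tested. The size rested on KO_LP 6 at 27.2 CPM, the other 5 libraries lying from 10.1 to 15.4 CPM. That library also held the adipocyte marker sum of 438 CPM, whose part in the result was not tested. Without KO_LP 6 the log2 fold was 0.35 (adjusted p = 0.102). The call also ended in 9 other fits that left out 1 library, all 6 of KO_NP among them. Cox7a1, the muscle isoform of Cox7a2, ran from 16.9 to 24.3 CPM (median 21.9) in WT_NP, 18.99 to 29.1 CPM (median 24.03) in WT_LP, 17.8 to 27.8 CPM (median 23.6) in KO_NP and 12.7 to 29.8 CPM (median 16.5) in KO_LP. It was not called (log2 fold -0.34 with SE 0.159 and adjusted p = 0.169), but without KO_LP 1, its highest KO_LP library, it passed the threshold at -0.51 (adjusted p = 0.0220). Cox7a2 ran from 728 to 1042 CPM (median 932) in KO_NP and from 569 to 926 CPM (median 684) in KO_LP, and in WT from 624 to 903 CPM (median 789) on NP and from 649.7 to 893 CPM (median 766) on LP. Cox4i2, with 0 to 9 counts in a library, was too low to test, and its partner Cox4i1 ran from 579 to 734 CPM (median 715), 634 to 819 CPM (median 734), 629.8 to 827 CPM (median 734) and 446 to 758 CPM (median 582) in WT_NP, WT_LP, KO_NP and KO_LP. Cox7b2, Cox8b and Cox8c were not analysed here.

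In ATP synthase 5 of 17 genes fell on LP in KO mice and 0 rose. All 17 had log2 folds below 0. The fall that was called with the smallest p was in the c ring. The 3 genes Atp5g1, Atp5g2 and Atp5g3 encode the same mature c subunit behind different import sequences. Atp5g1 ran from 110.1 to 149.9 CPM (median 135) in WT_NP and from 120.5 to 153 CPM (median 143) in WT_LP, then from 131 to 160.5 CPM (median 144) in KO_NP and from 89.96 to 129 CPM (median 104) in KO_LP. Every KO_LP library lay below every KO_NP library, and the WT groups overlapped (log2 fold -0.45 with SE 0.0913 and adjusted p = 0.0124 in KO; 0.08 in WT). Atp5g3 ran from 1825 to 2409 CPM (median 2184), 1805 to 2463 CPM (median 2011), 2008 to 2628 CPM (median 2224) and 1349 to 2237 CPM (median 1838) in WT_NP, WT_LP, KO_NP and KO_LP. It was not called (log2 fold -0.32 with SE 0.116 and adjusted p = 0.0819), with KO groups that overlapped through KO_LP 1 and KO_LP 6. Atp5g2 ran from 1.18 to 2.94 CPM (median 1.92), 1.38 to 2.89 CPM (median 2.01), 1.19 to 2.54 CPM (median 2.19) and 1.53 to 2.33 CPM (median 1.959) in the same order, and was not called (log2 fold -0.04 with SE 0.218 and adjusted p = 0.920). Its 3' end matches 3 other genes, so its counts are uncertain.

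The F1 head, where ATP is made, and its central stalk held 2 of the falls among 5 genes. They were the stalk subunits Atp5e (epsilon) and Atp5c1 (gamma). Atp5e ran from 263 to 331 CPM (median 296) in WT_NP and from 249 to 368 CPM (median 307) in WT_LP, then from 275 to 358 CPM (median 328) in KO_NP and from 214 to 298 CPM (median 236) in KO_LP. The KO groups overlapped through KO_LP 1 and KO_LP 5 (log2 fold -0.38 with SE 0.0974 and adjusted p = 0.0290, lower in 6 of 6). Atp5c1 ran from 359 to 436 CPM (median 383) in KO_NP and from 259 to 379.8 CPM (median 287) in KO_LP (log2 fold -0.36 with SE 0.0975 and adjusted p = 0.0333). The catalytic beta subunit Atp5b (-0.33, adjusted p = 0.0624), the alpha subunit Atp5a1 (-0.27, 0.0877) and the delta subunit Atp5d (-0.24, 0.0871) missed the threshold.

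Small membrane subunits, which shape the ATP synthase dimer and the cristae, held 2 falls among 5 genes. Atp5j2 ran from 438 to 555 CPM (median 513) in WT_NP and from 477 to 578 CPM (median 502) in WT_LP, then from 495 to 629.8 CPM (median 542) in KO_NP and from 369 to 518 CPM (median 407) in KO_LP. Atp5j2 encodes subunit f, and only KO_LP 1 reached into the KO_NP range (log2 fold -0.38 with SE 0.0911 and adjusted p = 0.0236). Atp5k, subunit e, ran from 685 to 983 CPM (median 738) in KO_NP and from 451 to 726 CPM (median 546) in KO_LP (log2 fold -0.43 with SE 0.122 and adjusted p = 0.0396). Atp5md (-0.31), Atp5mpl (-0.26) and Atp5l (-0.24, subunit g) were not called. The 4 genes of the peripheral stalk, which keeps the head from turning with the rotor, were not called either. They were Atp5pb (-0.33), Atp5j (-0.33), Atp5h (-0.27) and Atp5o, the oligomycin sensitivity protein (-0.25), with adjusted p from 0.0637 to 0.0951.

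Whether the LP effect differed between the genotypes was tested directly as the KO effect minus the WT effect. No member was called by edgeR quasi-likelihood, where 0.0% of all genes were called. At an unadjusted p under 0.05 there were 22 members and 2430 of all 15165 genes, and limma voom and limma on the normalized values called 0 members. The difference was below 0 for 40 of 41 members, with a median of -0.32 against 0.03 over all genes. The smallest p belonged to Atp5g1 (log2 fold -0.53 with SE 0.129 and adjusted p = 0.158) and Cox5b (log2 fold -0.39 with SE 0.114 and adjusted p = 0.172). DESeq2 called these 2 genes, with adjusted p of 0.0349 and 0.0495. Thus falls that passed the threshold in KO and not in WT were not shown to differ between the genotypes, except by that tool for those 2 genes. The share of all genes that DESeq2 called for this difference is not given here, so its 2 calls cannot be set against it. Without WT_NP 1, KO_LP 4 and KO_LP 6, edgeR gave Atp5g1 -0.41 (adjusted p = 0.682) and Cox5b -0.32 (adjusted p = 0.722).

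On NP, KO was set against WT to ask what loss of FGF21 does under the normal diet. This comparison shares its KO_NP libraries with the KO diet comparison, so the values are given for each on its own. Cox6a2 and Cox6b1 were higher in KO, 2 of 41 members, where 0.343% of all genes were called higher, and 0 were lower (0.231% of all genes). For Cox6a2 the levels were 3.22 ± 1.31 CPM in WT_NP and 13.1 ± 6.998 CPM in KO_NP (mean ± SD, n = 6; log2 fold 2.01 with SE 0.385 and adjusted p = 0.00866, higher in 6 of 6). Its groups overlapped through KO_NP 4, and the call held in each of the 33 alternative fits. Cox6b1 stood at 552 ± 69.05 CPM and 739.9 ± 45.6 CPM, with no overlap between the groups (log2 fold 0.42 with SE 0.0974 and adjusted p = 0.0421); 0.778% of all genes had groups not overlapping with KO higher.

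The call of Cox6b1 was close to the threshold. It ended in 13 of 24 fits that left out 1 library. Over all 24 the log2 fold ran from 0.38 to 0.46 and the adjusted p from 0.0274 to 0.116. It also ended without WT_NP 1, KO_LP 4 and KO_LP 6, at 0.39 (adjusted p = 0.0577). The libraries whose absence ended it were WT_NP 1, 5 and 6, WT_LP 1, 5 and 6, KO_NP 1, 2, 4, 5 and 6, and KO_LP 3 and 5. Both called genes lie on chromosome 7, which also carries Fgf21, at 82.6 Mb (Cox6a2) and 14.99 Mb (Cox6b1) from it. Cox7a1 (15.4 Mb), Cox6b2 (40.9 Mb) and Uqcrc2 (75.0 Mb) are the other members on that chromosome, and their log2 folds were 0.13, -0.05 and 0.15. The part of this position in the result was not tested. Over all 41 members the median log2 fold was 0.15, with 39 above 0, and 4 had an unadjusted p under 0.05 (1917 of all genes). Atp5l was the next largest (log2 fold 0.60 with SE 0.179 and adjusted p = 0.135); it had 42 to 142 counts per NP library, and its 3' end matches 9 other genes, 8 of them pseudogenes.

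On LP, KO was compared with WT in the same way, sharing KO_LP with the diet comparison. Atp5g1 was lower in KO, 1 of 41 members, where 1.59% of all genes were called lower, and 0 were higher (1.35% of all genes). It stood at 139.5 ± 12.98 CPM in WT_LP and 106 ± 14.4 CPM in KO_LP (log2 fold -0.40 with SE 0.0912 and adjusted p = 0.0191, lower in 6 of 6), although the groups overlapped. Without KO_LP 4 or without WT_LP 1 no member was called, while 6 were called without KO_LP 1, and 2 without WT_NP 1, WT_LP 3 or WT_LP 4. The shares of all genes called in those fits are not given here, so these counts cannot be set against the 1.59%. Without the 3 libraries that stood apart the log2 fold of Atp5g1 was -0.32 (adjusted p = 0.0868). Cox5b (log2 fold -0.29 with SE 0.0806 and adjusted p = 0.0514) and Atp5e (log2 fold -0.32 with SE 0.0974 and adjusted p = 0.0705) came next, and the members' median was -0.15 with 37 below 0. Cox6b1 (0.09) and Cox6a2 (0.58), the genes that were higher in KO on NP, were not called on LP.

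Within each group the members moved together from library to library. KO_LP 1 was above its group mean in 40 of 41 members (median deviation 0.33 on the log2 scale), and KO_LP 4 was below it in 38 (-0.26), as was KO_LP 5 (-0.13). KO_NP 5 was above its group mean in 40 of 41 members (0.15). In WT_NP, replicate 1 was below in 37 of 41 (-0.24). Over the whole series KO_LP 4 was the lowest library for 29 members, and KO_NP 2 or KO_NP 5 the highest for 16 and 13. Spread was widest in KO_LP, with a median coefficient of variation of 16.4%, against 12.2% in WT_NP, 11.3% in WT_LP and 10.8% in KO_NP. Counts of members in 1 direction are therefore not counts of independent events.

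**Figure D4:**
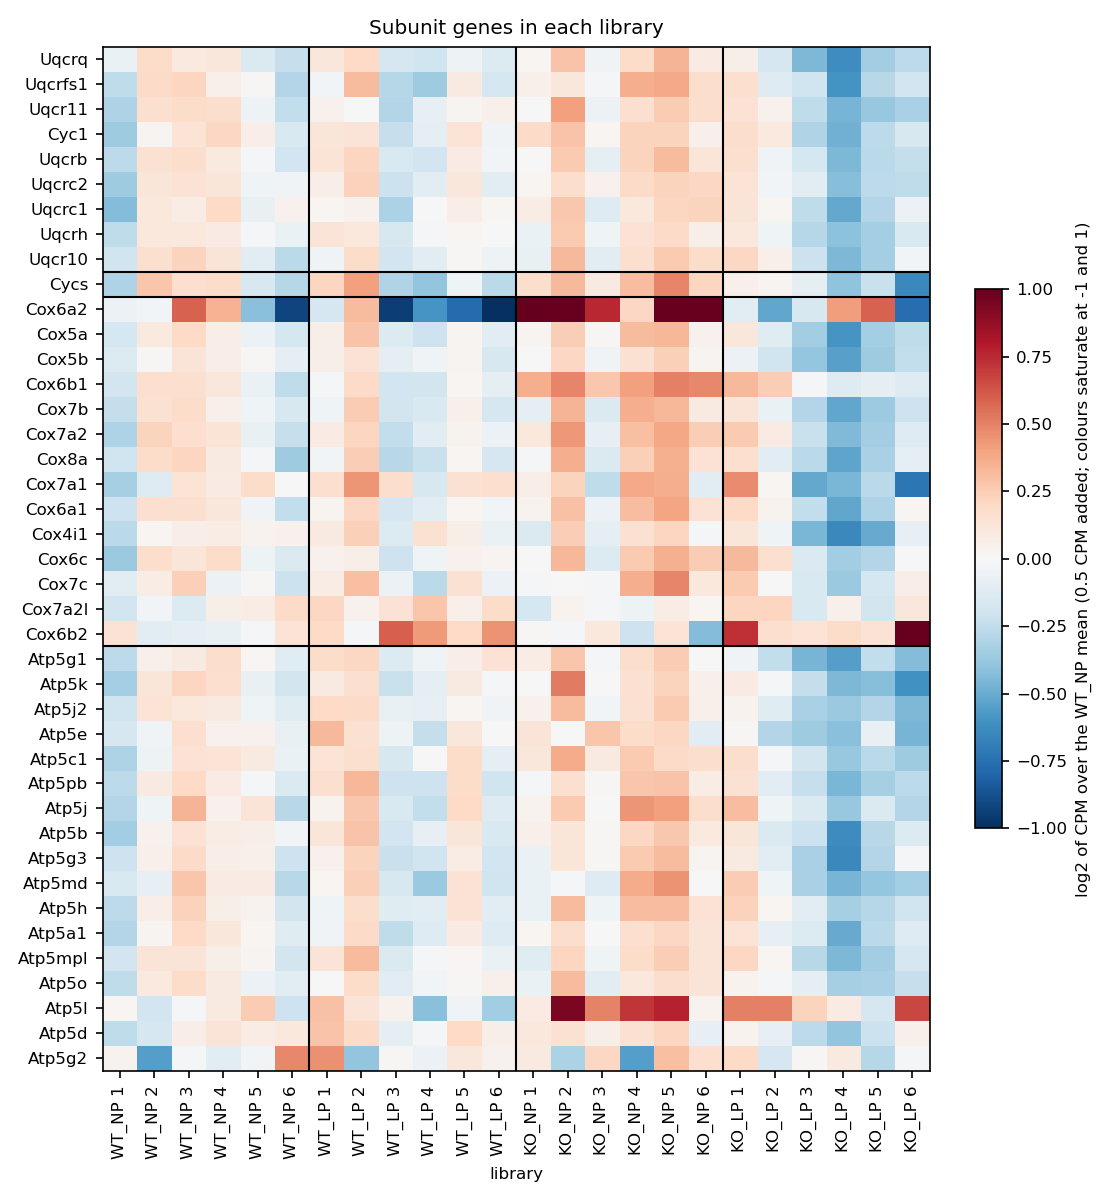
Log2 ratio of each gene's CPM (0.5 CPM added) to its WT_NP mean, for 41 genes (rows, by complex) in 24 libraries (columns, by group). Blue is lower and red higher, with colours saturating at -1 and 1. KO_LP 4 is the lowest library for 29 of the 41 genes, and KO_LP 1 lies above its group mean for 40 of them.

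Genes that work with these subunits were described in the same KO diet comparison, in which 3.58% of all genes were called lower. In that comparison no gene of the 7 lists that follow was called without WT_NP 1, KO_LP 4 and KO_LP 6. Of the 6 subunits of these complexes encoded by mitochondrial DNA, mt-Co1 and mt-Cytb were measured. The core subunit mt-Co1 of complex IV fell from 2663 ± 90.4 CPM to 1868 ± 384 CPM (log2 fold -0.51, adjusted p = 0.0236). The cytochrome b gene of complex III, mt-Cytb, was not called (-0.46, adjusted p = 0.0538). In complex II, which feeds electrons from succinate, 1 of 4 genes fell, the iron-sulfur subunit Sdhb (-0.44, adjusted p = 0.0393), with a list median of -0.33.

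Assembly factors were next. Of 29 tested genes for complex IV assembly 3 fell, Smim20 (-0.28), Higd2a (-0.35) and Higd1a (-0.40), with a list median of -0.19. For complex III assembly 1 of 6 fell, Ttc19 (-0.26; median -0.25), and for ATP synthase assembly 1 of 5, Tmem242 (-0.33; median -0.21). Genes that organise cristae, the folds that hold these complexes, had 6 falls among 8 tested, with a median of -0.33, and 0 falls with a median of -0.25 without those 3 libraries. Examples were Chchd3 (-0.39), Immt (-0.33), both of the MICOS complex at crista junctions, and the fusion protein Opa1 (-0.26). Of 10 regulators of nuclear respiratory genes 2 fell. These were the orphan receptor Esrra, from 47.5 ± 6.62 CPM to 36.04 ± 5.96 CPM (-0.40, adjusted p = 0.0374), and the coactivator Ppargc1a, from 100.4 ± 8.68 CPM to 77.6 ± 12.5 CPM (-0.37, adjusted p = 0.0428). No gene of these 7 lists was called for LP in WT or for the difference in LP effect between genotypes. In KO against WT on LP, 1.59% of all genes were called lower. From these lists Pet100 and Cmc2 (complex IV assembly), Tmem242, Chchd3 and Chchd6 (cristae) were called lower there. Without those 3 libraries only Pet100 among them kept its call.

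Markers of other cell types and RNA measures moved alongside the falls in KO mice. In that diet comparison 3.58% of all genes were called lower and 3.59% higher. Proximal tubule S1 and S2 markers had 13 of 13 log2 folds below 0 (median -0.31), with falls in Slc34a1 and Slc5a2. Their sum ran from 7918 to 9734 CPM in KO_NP and from 4689 to 7727 CPM in KO_LP. Macrophage markers had 13 of 13 above 0 (median 0.94), with Cd14, Cd74, C1qa and Itgam called higher, and sums from 489 to 890.4 CPM in KO_NP and from 677 to 2406 CPM in KO_LP. T and NK cell markers had 9 of 9 above 0, of which Cd3e was called, with sums of 20.6 to 47.3 CPM against 31.3 to 143 CPM. For B and plasma cells 7 of 7 were above 0 and 0 called, with sums of 1347 to 2829 CPM against 1352 to 14632 CPM. For LP in WT, macrophage markers also had 13 of 13 above 0 (median 0.32), with 0 called. Proximal tubule S1 and S2 markers there had 11 of 13 above 0 (median 0.10). T and NK cell markers had 8 of 9 below 0 in WT, and B and plasma cell markers 7 of 7 below 0. Among other lists, markers of the S3 segment had 8 of 10 below 0 (median -0.36), with Aadat called lower and Slc5a1 higher. Collecting duct markers had 7 of 8 below 0 (median -0.16), with Avpr2 called lower. Of 6 podocyte markers 3 were below 0 and 3 above (median 0.03), with Wt1 called higher. Smooth muscle and pericyte markers had 7 of 7 above 0 (median 0.40) and distal and connecting tubule markers 7 of 8 below 0 (median -0.24), with 0 called in either. Thick ascending limb markers had 5 of 7 below 0 (median -0.17) and endothelial markers 6 of 8 above 0 (median 0.11), also with 0 called. For KO against WT on NP, proximal tubule S1 and S2 markers had 10 of 13 above 0 (median 0.22). Without WT_NP 1, KO_LP 4 and KO_LP 6 no marker was called for LP in KO. The medians were then -0.26 for proximal tubule S1 and S2 and 0.71 for macrophage markers. In WT the macrophage median without those libraries was 0.74, so this rise was of like size in both genotypes. No marker in these lists was at 0 in all 6 libraries of a group.

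By library, KO_LP 4 combined the lowest levels of complexes III and IV and ATP synthase with a mitochondrially encoded share of counts of 18.5%, a proximal tubule sum of 4970 CPM and a macrophage sum of 2406 CPM. KO_LP 1, with the highest complex levels of its group, had 26.3%, 7199.6 CPM and 677 CPM. KO_LP 6 had a proximal tubule sum of 4689 CPM and an adipocyte marker sum of 438 CPM. Its members had a median deviation of 0.01 from the group mean, and it was the lowest library of the series for 5 members. The mitochondrially encoded share was 28.1% ± 1.54 (SD, n = 6) in KO_NP and 23.1% ± 2.66 in KO_LP, against 25.3% ± 1.97 in WT_NP and 25.9% ± 1.23 in WT_LP. All members together took 2.10% of counts in KO_NP, 1.90% in KO_LP, 1.99% in WT_NP and 2.002% in WT_LP. The part of cell makeup and of these measures in the falls was not tested.

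Some of the counts carry an uncertainty of identity. In 14 of 42 members the last 300 bases of a transcript match another gene, mostly a pseudogene, at 97% identity or more over at least 50 bases. Only for Atp5g2 and Atp5l did the matching genes that have a row hold over 5% of the member's own counts. In 14 members an exon overlaps another gene, mostly on the opposite strand, and whether counting used the strand is not given in the sources used here.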

How the data were processed

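Kidney cortex RNA was measured by Lexogen Quant-Seq, a 3' tag method, with 50 base forward reads, per the labels' protocols. Deposited were the authors' raw counts per gene and their normalized signal, which equals those counts divided by 1 size factor per library. The submitters' processing notes name DESeq2 1.22.2 and GRCm38. No source used here names the aligner, the counter or its strand setting. Nothing in the labels says outright that libraries come from separate animals, so p-values measure the spread between these libraries. The raw counts of all 24 libraries (8469102 to 21063652 each) were fitted with edgeR 4.0.16 (quasi-likelihood, TMM scaling, filterByExpr, 4 group means), and p-values were adjusted by Benjamini-Hochberg over 15165 genes. A member was called at an adjusted p under 0.05, the SE is the log2 fold over the square root of F, and log2 levels used a prior count of 2. "Lower in 6 of 6" counts libraries of the compared group on that side of the other group's mean.

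The members and lists were chosen with earlier results of these data known. The result of 1 marker gene is not reported here. Full values were given for Cycs, the 3 members of each complex with the smallest p for LP in KO, tissue isoforms and their partners, the c subunit genes, and members called in other comparisons or, with none, the 2 of smallest p. Symbols came from the file for 14208 genes and from GENCODE M21 for 2668. Similar 3' ends were searched with blastn 2.17.0. On simulated data for the KO diet comparison (15034 genes, 200 changed) the fit called 12% of genes changed 1.25-fold, 54% at 1.5-fold, 62% at 2-fold and 96% at 4-fold. The changed genes were drawn at random among expressed genes, varied independently and were the only ones changed. These rates are therefore not those of the members. Alternatives were DESeq2 size factors, scaling without mitochondrially encoded genes, no filter, a filter of 5 CPM in 6 libraries, only the libraries compared, DESeq2 1.42.0, limma 3.58.1 voom with quality weights, limma on the log2 of normalized values, leaving out each library, and leaving out 3 libraries, the last chosen after seeing the data.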

Additional observations from a re-analysis of the deposited data

Results flagged for a closer look

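In 100 groups of 6 libraries checked for a value far from the rest, 2 were picked out by Dixon's test, where chance picks out about 1 in 20 groups. Cox6b2 stood at 27.2 CPM in 1 KO_LP library, replicate 6, with the others at 10.1 to 15.4 CPM. Cox4i1 stood at 579 CPM in 1 WT_NP library, with the others at 704 to 734 CPM.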

How the results depend on the processing

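No paired analysis was possible because the labels carry no replicate numbers. The number of members that fell on LP in KO (11) became 28 with DESeq2, 27 with limma voom and 0 without WT_NP 1, KO_LP 4 and KO_LP 6, and ranged from 3 to 34 when 1 library was left out. Cox6b2, the 1 member that rose, gave 0 in the fit of only the libraries compared, with limma voom, with limma on normalized values and without those 3 libraries, and 0 to 1 when 1 library was left out. For the difference in LP effect between genotypes DESeq2 called 2 members lower, where edgeR called 0. KO above WT on NP (2 members) became 1 without the 3 libraries and 1 to 2 with 1 library left out. KO below WT on LP (1 member) became 2 with the filter of 5 CPM or limma on normalized values, 4 with DESeq2, 5 with limma voom and 0 with only the libraries compared or without the 3 libraries, and ranged from 0 to 6 with 1 library left out. The shares of all genes called in these alternatives are not given beside the counts, and the cause of these changes was not tested. For LP in WT 0 members were called under any alternative.

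Scaling without mitochondrially encoded genes raised levels in WT_NP, WT_LP, KO_NP and KO_LP to 8.86, 8.85, 9.01 and 8.68 for complex III, 8.24, 8.25, 8.51 and 8.16 for complex IV, 8.47, 8.49, 8.63 and 8.32 for ATP synthase, and 7.19, 7.14, 7.47 and 6.99 for Cycs, by construction of the scale. The filter of 5 CPM, which tests fewer genes, gave ATP synthase 8.48, 8.50, 8.64 and 8.34. The log2 fold of Atp5g2 for LP in KO, not called, ranged from -0.16 to 0.039 with 1 library left out, changing sign without KO_NP 5 (0.039) or KO_LP 5 (0.014). Of the values of single genes, 770 kept their side of the threshold, 86 lost a call, 30 gained one and 2 changed sign. Depth limits Cox4i2 (0 to 9 counts a library), Atp5g2 (15 to 45) and Atp5l (42 to 142).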
